A study of Mus musculus with 2 samples.

Results

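The cytochrome P450 genes of the late fetal mouse ureter are described here in Rbpj-cKO and control embryos. They were taken as every measured spot, control spots left out, whose gene name begins with Cyp and a number, without 2 genes of the Cyp26 subfamily. This gave 96 genes with 120 probes on 138 spots, of 31791 gene names and 39429 probes on the array. The Rbpj-cKO embryos carried Tbx18(cre/+) and Rbpj(fl/fl), and the control embryos were Rbpj(fl/?), with no cre in their label and the second Rbpj allele not specified. All were of the NMRI strain at embryonic stage E18.5. Their ureters were dissected by hand, and total RNA was hybridised to 2 arrays of 2 colours. The male array carried Rbpj-cKO RNA in red and control RNA in green, and the female array carried them the other way round. Sex, dye orientation and the particular RNA on each array therefore cannot be told apart. The Tbx18 locus drives cre in the mesenchyme around the ureter, and RBPJ is the transcription factor of Notch signalling. The number of embryos behind each RNA is not in the labels, so the spread between embryos is not known. The p-values combine a gene's spread between these 2 arrays with the spread pooled over all features. The pooled part weighs more (residual degrees of freedom 1, prior 10.3).

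Cytochrome P450 enzymes are haem proteins that add oxygen to small molecules, with electrons passed on by P450 reductase in the endoplasmic reticulum or by ferredoxin in mitochondria. Families 1 to 4 act mostly on foreign compounds, fatty acids and eicosanoids, and the higher-numbered families on steroids, sterols, bile acids and vitamins. Many family 2 and family 3 genes are known as liver genes. Cyp2e1, the ethanol-inducible P450, oxidises ethanol, acetone and other small molecules.

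Cyp2e1 rose in the Rbpj-cKO ureters on both arrays, and it was the only cytochrome P450 gene that passed the test. Its mean log2 ratio of Rbpj-cKO over control was 1.38 ± 0.13 (SD, n = 2 arrays), a 2.60-fold difference. Several other family 2 genes, known as liver genes, had ratios of opposite sign on the 2 arrays, among them Cyp2d26 and Cyp2c67. The sequences of these 3 genes are given first, because the results turn on them. The probe that follows is the second of the 2 Cyp2e1 probes, at chr7:147956922-147956981 on mm9, plus strand, as placed in the files. The 250 bases before the start of each gene come from RefSeq on GRCm38.p6, at chr7:140763569-140763818 on the plus strand for Cyp2e1, chr19:39649043-39649292 on the minus strand for Cyp2c67 and chr15:82794246-82794495 on the minus strand for Cyp2d26. They are shown to set the gene that rose beside 2 relatives whose ratios had opposite signs. Capitals mark the TATA box, TATAAA or its reverse complement TTTATA, and in Cyp2c67 also CAAAGTCCA, a sequence bound by the liver factor HNF4.
Cyp2e1 second probe: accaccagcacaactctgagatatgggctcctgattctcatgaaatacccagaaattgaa
Cyp2e1 promoter: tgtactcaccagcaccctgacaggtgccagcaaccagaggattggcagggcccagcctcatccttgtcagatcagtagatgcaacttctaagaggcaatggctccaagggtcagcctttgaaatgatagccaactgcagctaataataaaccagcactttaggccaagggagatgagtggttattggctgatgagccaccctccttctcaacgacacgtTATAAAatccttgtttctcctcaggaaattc
Cyp2c67 promoter: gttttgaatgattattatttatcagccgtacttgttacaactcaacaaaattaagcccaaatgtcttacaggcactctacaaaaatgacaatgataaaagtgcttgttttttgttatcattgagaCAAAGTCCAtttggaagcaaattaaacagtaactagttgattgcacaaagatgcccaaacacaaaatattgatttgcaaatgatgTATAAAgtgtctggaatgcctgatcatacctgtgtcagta
Cyp2d26 promoter: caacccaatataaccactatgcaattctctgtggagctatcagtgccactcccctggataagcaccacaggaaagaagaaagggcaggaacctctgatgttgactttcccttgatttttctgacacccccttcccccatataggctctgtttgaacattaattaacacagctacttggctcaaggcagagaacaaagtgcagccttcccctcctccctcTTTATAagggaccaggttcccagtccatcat

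TATAAA began 31 bases before the start of Cyp2e1 and 40 bases before that of Cyp2c67. In Cyp2d26 the match, also from 31 bases before the start, was the reverse complement TTTATA. In Cyp2c67 the HNF4 sequence lay from 125 to 117 bases before the start. RefSeq windows were matched for 69 of the 96 gene names, and for 39 of the 53 genes that were tested, which have 42 windows. Each motif was searched on both strands and the searches were made with earlier results known. TATAAA was in 12 of these 42 windows (28.6%) and in 12.4% of all 32851 windows. CAAAGTCCA was in 4 of the 42 (9.52%), those of Cyp2c67, Cyp2c68, Cyp2c70 and Cyp3a11, and in 0.384% of all windows. TGGGAA, the core of the sequence that RBPJ binds, was in 12 of the 42 (28.6%) and in 21.6% of all windows. It was in the window of Cyp2d26, printed above in lower case as its reverse complement TTCCCA, and not in those of Cyp2e1 and Cyp2c67. GCGTG, the core bound by the aryl hydrocarbon receptor, was in 11 of the 42 (26.2%) and in 28.2% of all windows. No other motif was searched, and a match here is a run of letters only.

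The tissue and the arrays were checked before the members were compared. All 19 urothelial and all 11 ureteric smooth muscle markers on the lists passed the filter on dim probes. Of the urothelial markers 14 of 19 were higher in Rbpj-cKO on both arrays and 0 lower on both, with medians of 0.13 on the male array and 0.28 on the female array. Of the smooth muscle markers 9 of 11 were lower on both arrays and 1 higher on both, with medians of -0.56 and -0.20. No marker of either type passed the test. Both probes for Rbpj were lower in Rbpj-cKO on both arrays. The brighter had log2 ratios of -1.58 (male) and -0.93 (female) with an adjusted p of 0.0760 (limma), and the other -0.42 and -1.12. Whether these probes lie in the deleted part of the gene was not analysed here. The median signal was 6.38 to 13.3 times the median background over the 4 channels, and no spot was saturated. Markers of hepatocytes were also detected, with 17 of 19 tested, and Serpina1b and Tf not tested. Their mean level was 11.04 in Rbpj-cKO and 12.08 in control RNA on the male array, and 12.39 and 11.75 on the female array (log2 intensity). Their median log2 ratio was -1.23 on the male array and 0.70 on the female array. Albumin (Alb) was at 13.89 in Rbpj-cKO and 15.58 in control RNA on the male array, and at 15.69 and 14.66 on the female array (log2 intensity). Of the 17 tested, 14 were lower in Rbpj-cKO on the male and higher on the female array.

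Many members of the family were not measurable in this tissue. Of the 120 probes, 57 were well above background in all 4 channels (47.5%, against 64.2% of all probes on the array), 44 in no channel (36.7%, against 28.2%) and 19 in 1 to 3 channels. A gene was tested where a probe was well above background on both arrays in Rbpj-cKO or in control RNA, which left 53 of the 96 genes. The 43 others were not tested. All 5 probes for the Cyp2b genes, which in liver respond to phenobarbital, were not well above background in any channel. The same held for Cyp1a1 and Cyp1a2, the classic targets of the aryl hydrocarbon receptor. It held too for Cyp19a1, the oestrogen-forming aromatase, for Cyp24a1, which degrades vitamin D, and for Cyp26c1, which degrades retinoic acid. Cyp8b1, a bile acid enzyme, was also not well above background in any channel. Cyp7a1, the rate-limiting enzyme of bile acid synthesis, was above it in 2 channels, and Cyp11b1, which completes corticosterone synthesis, in 1.

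**Figure D1:**
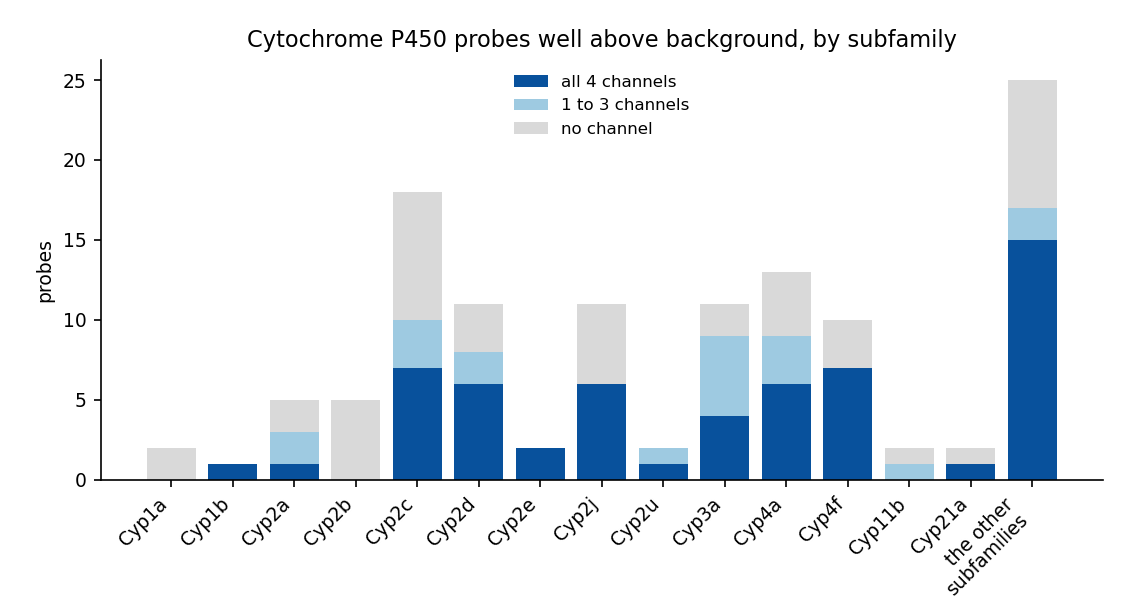
Number of cytochrome P450 probes per subfamily that were well above background in all 4 channels, in 1 to 3 or in none (stacked bars; subfamilies with a single probe, other than Cyp1b, are joined with Cyp2r in the last bar). Both Cyp2e probes were above background in all 4 channels, all 5 Cyp2b probes and both Cyp1a probes in none.

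The brighter Cyp2e1 probe was at 11.18 in Rbpj-cKO and 9.71 in control RNA on the male array, and at 10.75 in Rbpj-cKO and 9.47 in control RNA on the female array (log2 intensity after normalisation). Both Rbpj-cKO channels were above both control channels, with no overlap. The log2 ratio was 1.47 on the male array against 1.28 on the female array. The mean of 1.38 had a standard error of 0.195 and an adjusted p of 0.0211 (limma, Benjamini-Hochberg over 20989 features). By this mean Cyp2e1 was number 12 of the 20989 features. The urothelial markers, with a median of the mean ratios of 0.19, lay on the same side of 0 as Cyp2e1 and the smooth muscle markers, with -0.35, on the other, and their part in its ratio was not tested. Across all features, 9 rose (0.0429%) and 18 fell (0.0858%) by the same test. The probe lies at chr7:147960628-147960687 on mm9, plus strand.

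The second Cyp2e1 probe, printed above, was at 10.09 in Rbpj-cKO and 8.69 in control RNA on the male array, and at 10.03 and 8.35 on the female array. Its Rbpj-cKO channels were again both above its control channels. Its ratios were 1.40 and 1.69, with a mean of 1.54 ± 0.20 (SD, n = 2 arrays). With each probe tested by itself, the adjusted p was 0.00267 for this probe and 0.00578 for the brighter probe (limma over 26224 probes, of which 14, or 0.0534%, were higher). The gene passed the test in 6 of 11 alternative settings. Its ratios were 1.38 to 1.59, but those settings that changed only filter, test or array scaling could not move them. Its adjusted p (limma) was 0.0515 when its probes were averaged, 0.111 without the filter on dim probes, 0.239 on Agilent's processed signals, 0.246 on the deposited value table and 0.988 with arrays centred without loess. Neither probe shared a run of more than 13 bases with a probe of another gene, over probes of 60 bases.

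**Figure D2:**
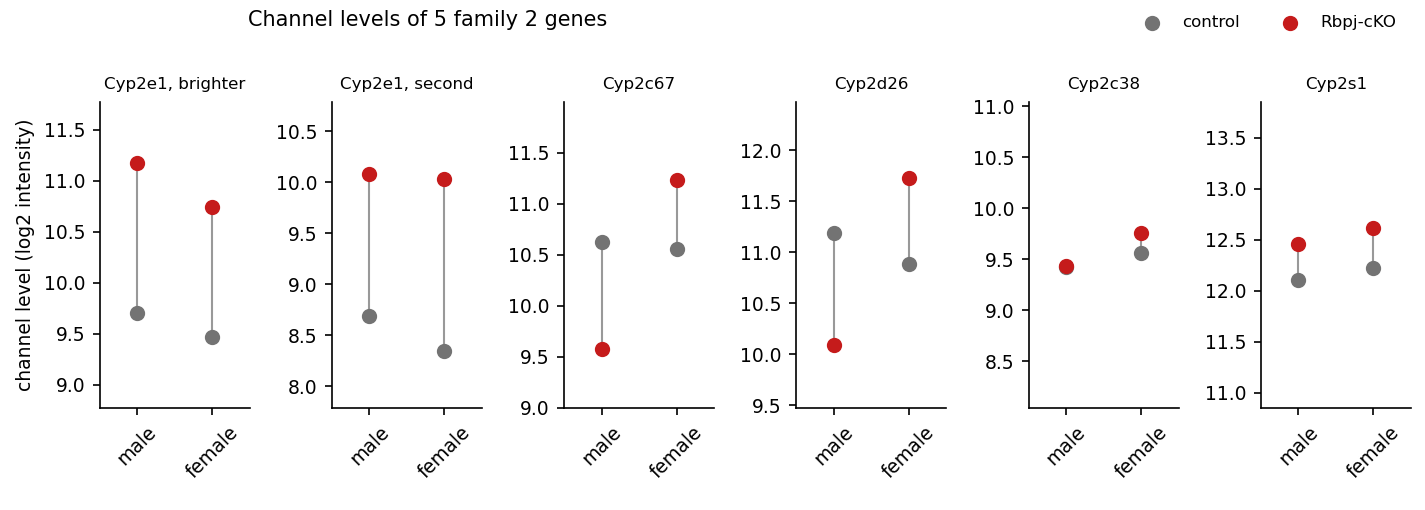
Channel level (log2 intensity) in control (grey) and Rbpj-cKO RNA (red) on the male and female arrays, for the 2 Cyp2e1 probes and 4 other family 2 genes; each panel spans the same log2 range, and levels are not compared between panels. Rbpj-cKO is above control on both arrays for Cyp2e1, by 1.47 and 1.28 at the brighter probe, and on opposite sides for Cyp2c67 and Cyp2d26; the Cyp2c38 points on the male array overlie each other.

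Cyp2e1 is the sole member of its subfamily on the array, and the other family 2 genes are its closest relatives here. Of 46 such relatives, 23 were tested. None passed the test, and none had an unadjusted p under 0.05. On the male array their ratios ran from -1.10 (Cyp2d26) to 0.35 (Cyp2s1) with a median of -0.19, which is 1.66 below Cyp2e1. On the female array they ran from -0.32 (Cyp2j13) to 0.84 (Cyp2d26) with a median of 0.19, which is 1.10 below Cyp2e1. Cyp2e1 thus lay outside the range of its relatives on each array, and that difference was not tested. At least 1.5-fold on both arrays in the same direction was reached by 1 member, Cyp2e1, and by 0.638% of all features.

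Cyp2s1, an epithelial P450 that acts on eicosanoids and retinoids, came next among the family 2 genes. It was at 12.46 in Rbpj-cKO and 12.11 in control RNA on the male array, and at 12.61 and 12.23 on the female array. Rbpj-cKO was higher than control on each array, and the channels did not overlap. The mean ratio was 0.37 ± 0.02 (SD, n = 2 arrays), which did not pass the test (adjusted p = 1.00, limma). The urothelial markers were also mostly higher on both arrays (14 of 19), and their part in this ratio was not tested. Cyp2u1, which hydroxylates fatty acids, was at -0.28 and 0.26, and Cyp2f2, known from lung, at -0.23 and 0.32. Cyp2t4 was at -0.11 and 0.02, and of the Cyp2a genes Cyp2a4 was at -0.04 and 0.09.

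Cyp2a12, a steroid hydroxylase of liver, was among the lowest members, at 7.21 in Rbpj-cKO and 7.59 in control RNA on the male array and 7.52 and 7.67 on the female array. The Rbpj-cKO channels were below the control channels without overlap. Its ratios were -0.39 and -0.15, and it was above background in 3 of the 4 channels. The Cyp2j genes include epoxygenases of arachidonic acid. The 5 tested had mean ratios from -0.13 (Cyp2j13) to 0.10 (Cyp2j7-ps, named as a pseudogene). Cyp2j9 was at 0.07 and -0.08, Cyp2j8-ps at 0.01 and -0.08 and Cyp2j6 at -0.13 and 0.01. None of these 6 genes passed the test.

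The Cyp2c and Cyp2d genes, mostly liver enzymes for drugs, fatty acids and steroids, had ratios of opposite sign on the arrays, a difference that was not tested. Of 6 tested Cyp2c genes, 5 were lower in Rbpj-cKO on the male array and higher on the female array, with medians of -0.78 and 0.24. Of 6 tested Cyp2d genes 5 did so too, with medians of -0.25 and 0.17. Over all features, 6150 of 20989 (29.3%) had that pattern of signs, and over the 53 tested members 24 did (45.3%). On both arrays the green channel was then the higher of the pair. The hepatocyte markers had the same signs in 14 of 17 cases, with medians of -1.23 and 0.70. Their part in these ratios was not tested, and fewer cells of a type and less RNA per cell cannot be told apart in whole ureters.

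Cyp2d26, a liver P450, was at 10.09 in Rbpj-cKO and 11.19 in control RNA on the male array, and at 11.73 and 10.89 on the female array. The Rbpj-cKO channels held both the lowest and the highest value, and the groups overlapped. The ratios were -1.10 and 0.84, and the mean of -0.13 ± 1.37 (SD, n = 2 arrays) had an adjusted p of 1.00 (limma). Cyp2c67, also a liver P450, was at 9.58 in Rbpj-cKO and 10.62 in control RNA on the male array, and at 11.23 and 10.55 on the female array. Here too the Rbpj-cKO channels were the lowest and the highest, with ratios of -1.05 and 0.67. Its second probe had ratios of -1.41 and 0.70. These 2 genes were the members with at least 1.5-fold in opposite directions, against 1.04% of all features.

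Cyp2c29, a major Cyp2c enzyme of mouse liver, was at 7.74 in Rbpj-cKO and 8.83 in control RNA on the male array, and at 9.06 and 8.52 on the female array. Its ratios were -1.08 and 0.53. Cyp2c68 was at 8.91 and 9.87 on the male array and at 9.86 and 9.59 on the female array, with ratios of -0.95 and 0.26. In both genes the groups overlapped and the lowest value was the Rbpj-cKO channel of the male array. The probes of Cyp2c67 and Cyp2c68 shared a run of 25 bases, so their signals may not be separate. Cyp2c70, the enzyme that forms muricholic acids in mice, was at -0.61 and 0.23. Cyp2c44, now named Cyp2c23, a vascular and renal epoxygenase, was at -0.34 and 0.20. Cyp2c38 was the Cyp2c gene with no such difference in sign, at 0.01 and 0.20. Among the Cyp2d genes, Cyp2d12 was at -0.44 and 0.19, Cyp2d10 at -0.32 and 0.40, Cyp2d22 at -0.19 and 0.14, Cyp2d11 at -0.11 and 0.15 and Cyp2d40 at -0.02 and -0.06.

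**Figure D3:**
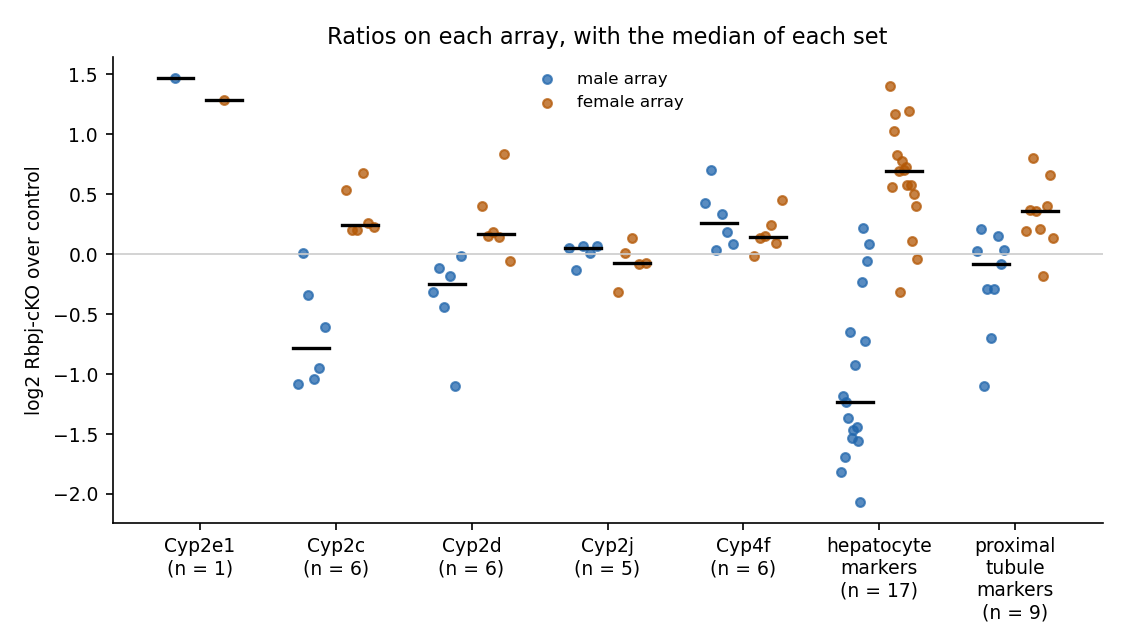
log2 ratio of Rbpj-cKO over control per gene on the male (blue) and female (orange) arrays for Cyp2e1, 4 subfamilies and the hepatocyte and kidney proximal tubule markers; black lines are medians. The hepatocyte medians are -1.23 and 0.70 and the Cyp2c medians -0.78 and 0.24, while Cyp2e1 is at 1.47 and 1.28.

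Of the 17 tested hepatocyte markers, 14 were lower in Rbpj-cKO on the male array and higher on the female array. Of the others, 1 was higher on both arrays, 1 lower on both, and 1 higher on the male and lower on the female. Cyp2e1, itself known as a liver gene, was higher on both, and the part of liver cells in its ratio was not tested. Fgg, a fibrinogen chain, was at -2.06 and 1.20, and Afp, the fetal serum protein, at -1.81 and 1.40. Ttr, also made outside the liver, was at 0.08 and -0.04. Kidney proximal tubule, the other main site of P450 expression near the ureter, had 9 of 16 markers tested, with medians of -0.08 and 0.36. The transporters Slc34a1, Slc22a6, Slc22a8 and Slc22a12 were among the 7 not tested. Those tested included Slc5a2, Slc3a1, Aqp1, Cubn, Lrp2 and Fbp1. Of the 9 tested, 4 were lower on the male and higher on the female array, 4 higher on both and 1 lower on both. The part of proximal tubule cells in the P450 ratios was not tested. Of markers of adrenal and gonadal steroid cells, 8 of 11 were tested, with medians of 0.12 and 0.21.

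**Figure D4:**
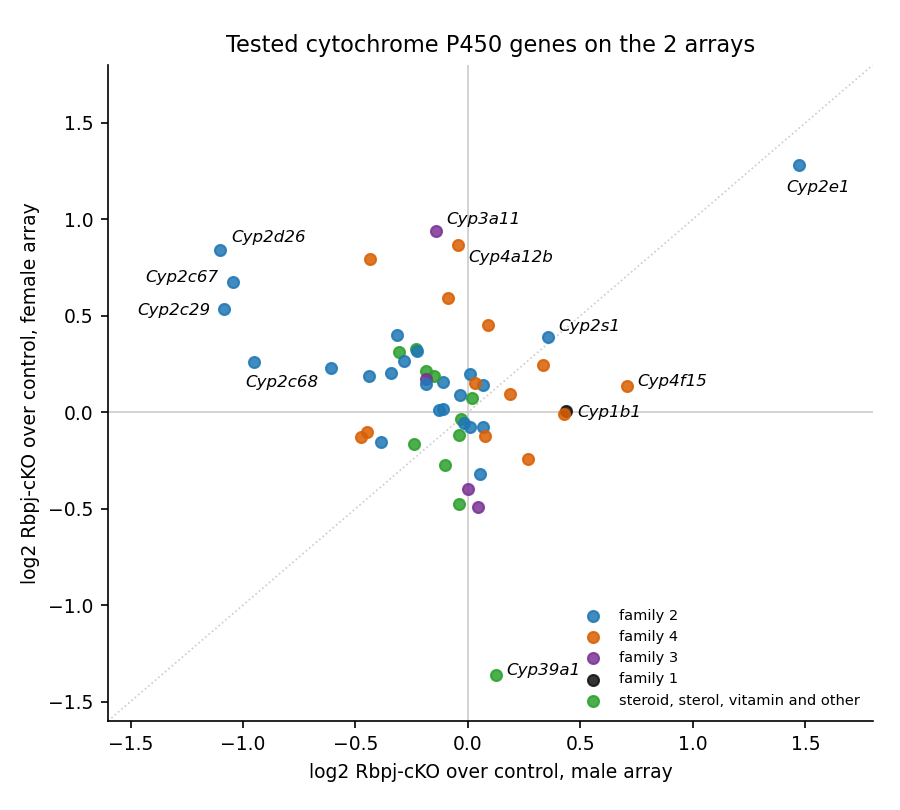
log2 ratio of Rbpj-cKO over control on the male array (x axis) and the female array (y axis) for the 53 tested cytochrome P450 genes, coloured by family or role; the dotted line marks equal ratios. Cyp2e1 is at the upper right with 1.47 and 1.28, and Cyp2d26 and Cyp2c67 are at the upper left.

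Family 3 holds the main drug-oxidising P450 genes of liver and gut, and 4 of 8 were tested. Cyp3a11, the main adult liver form, was at 7.48 in Rbpj-cKO and 7.63 in control RNA on the male array and at 8.33 and 7.39 on the female array. The female Rbpj-cKO channel was above the other 3, and the male ratio of -0.14 was opposite in sign to the female ratio of 0.94. Cyp3a13 was at -0.19 and 0.17, Cyp3a25 at 0.05 and -0.49, and Cyp3a57 at 0.00 and -0.40. None passed the test, and none had an unadjusted p under 0.05.

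Family 4 hydroxylates fatty acids and eicosanoids, and 13 of 20 genes were tested, with none past the test or with an unadjusted p under 0.05. Of the 6 tested Cyp4f genes, which inactivate leukotrienes among other lipids, 5 were higher in Rbpj-cKO on both arrays, with a median of 0.24. Over all features 21.7% were higher on both arrays and the median was 0.01. Of the urothelial markers 14 of 19 were higher on both, with a median of 0.19, and their part in the Cyp4f ratios was not tested. Cyp4f15 was at 10.14 in Rbpj-cKO and 9.43 in control RNA on the male array, and at 10.12 and 9.99 on the female array. Rbpj-cKO was above control in each pair and the groups did not overlap, with ratios of 0.71 and 0.14. Cyp4f17 was at 11.41 and 11.08 on the male array against 11.19 and 10.94 on the female array, with ratios of 0.33 and 0.25, again without overlap. Cyp4f39, a fatty acid hydroxylase of skin, was at 0.09 and 0.45, Cyp4f18 at 0.19 and 0.09, Cyp4f16 at 0.03 and 0.15 and Cyp4f13 at 0.43 and -0.01.

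The Cyp4a genes, targets of PPAR alpha in liver and kidney, did not share a direction. Cyp4a12b, a male-biased arachidonic acid hydroxylase, was at 8.14 in Rbpj-cKO and 8.18 in control RNA on the male array and at 8.87 and 8.01 on the female array. The female Rbpj-cKO channel stood above the other 3, and the ratios were -0.04 and 0.86. Cyp4a12a was at -0.43 and 0.79. Cyp4a10 was at 7.82 and 8.30 on the male array against 7.91 and 8.04 on the female array, and its ratios of -0.48 and -0.13 were both below 0. Cyp4a31 was at 7.85 and 8.29 on the male array against 7.84 and 7.94 on the female array, with ratios of -0.45 and -0.10. In both genes the Rbpj-cKO channels were below the control channels without overlap. Probes of these 2 genes shared a run of 34 bases, so their signals may not be separate. Cyp4a29 was at 0.27 and -0.24. Of the single-gene subfamilies, Cyp4v3, a fatty acid hydroxylase, was at -0.09 and 0.59 and Cyp4b1, known from lung, at 0.08 and -0.12.

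Cyp1b1, which oxidises oestradiol, retinol and aromatic hydrocarbons, was the member of family 1 that was tested. It was at 11.60 in Rbpj-cKO and 11.16 in control RNA on the male array and 11.68 and 11.67 on the female array. The groups overlapped, and the ratios of 0.44 and 0.01 did not pass the test. Ahr, the receptor that induces this family, had ratios of 0.33 and 0.83, and its repressor Ahrr had ratios of 1.04 and 0.68 (adjusted p = 0.305, limma).

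Of the steroid hormone genes, 3 of 6 were tested. Cyp11a1, which cuts the side chain of cholesterol, was at -0.10 and -0.27 and was above background in 3 channels. Cyp17a1, needed for androgens, was at -0.15 and 0.19, and Cyp21a1, needed for corticosteroids, at -0.04 and -0.47. Of the sterol and bile acid genes 5 of 7 were tested. Cyp39a1, an oxysterol 7-alpha-hydroxylase of liver, was at 9.65 in Rbpj-cKO and 9.53 in control RNA on the male array, and at 9.05 and 10.41 on the female array. The low Rbpj-cKO and the high control value both came from the female array, and the groups overlapped. Its ratios were 0.12 and -1.36, and its mean of -0.62 ± 1.05 (SD, n = 2 arrays) was the lowest of all tested members, with an adjusted p of 1.00 (limma).

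Cyp51, the sterol demethylase of cholesterol synthesis, was at -0.23 and 0.32. Cyp27a1, the mitochondrial sterol 27-hydroxylase, was at -0.03 on both arrays, and Cyp7b1, which hydroxylates oxysterols, at -0.04 and -0.12. Cyp46a1, the cholesterol hydroxylase of brain, was at 0.02 and 0.08. For vitamin D, the 25-hydroxylase Cyp2r1 was at -0.24 and -0.17 and the 1-alpha-hydroxylase Cyp27b1 at -0.19 and 0.21. Cyp20a1, a P450 of unknown substrate, was at -0.31 and 0.31. None of these 7 genes passed the test.

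Over the 53 tested members the median of the mean ratios was -0.01, against 0.01 over all features. Of these members, 11 were higher on both arrays (20.8%, against 21.7% of all features) and 10 lower on both (18.9%, against 19.7%). Another 24 were lower on the male and higher on the female (45.3%, against 29.3%), and 8 the reverse (15.1%, against 29.3%). Of the tested members only Cyp2e1 had an unadjusted p under 0.05 (limma), as did 708 of all 20989 features. Of the 6 genes with 2 probes that passed the filter (Cyp2c67, Cyp2e1, Cyp2j6, Cyp2r1, Cyp4a10 and Cyp4f18), the probes of a gene had mean ratios of the same sign in all 6.

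The partners of the P450 enzymes showed no member past the test. Of redox partners and haem enzymes 24 of 25 were tested, with a median of 0.06. P450 reductase (Por), which feeds electrons to the microsomal enzymes, was at 0.42 and 0.20 and Fech, the last step of haem synthesis, at 0.15 and 0.31. The lowest 2 were Pgrmc2, a haem chaperone, at -0.16 and -0.20 and Cyb5d1 at -0.03 and -0.31. Ptgis and Tbxas1, P450 enzymes with other names that make prostacyclin and thromboxane, were at 0.32 and -0.19 and at 0.11 and -0.45.

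Of the regulators of P450 genes 33 of 36 were tested, with a median of 0.08 and none past the test. The oestrogen receptor Esr1 had the highest ratios, 1.76 and 0.93, with an adjusted p of 0.0716 (limma), followed by Ahrr. The lowest were Cebpa, a liver and fat transcription factor, at -0.45 and -0.18 and Rora, a nuclear receptor, at -0.12 and -0.46. Hnf4a, a regulator of liver and proximal tubule genes, was at -0.70 and 0.21. Nr1i2 and Nr1i3, the receptors that induce Cyp3a and Cyp2b genes, and Foxa2 were not tested.

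Of the enzymes that conjugate or further process P450 products 56 of 69 were tested, with a median of 0.05 and none past the test. Sult1e1, which sulphates oestrogens, was at 3.98 on the male array and 0.23 on the female array (adjusted p = 0.593, limma), so its mean came almost wholly from the male array. Gstm2, a glutathione transferase, was at 0.56 and 0.21, and the lowest were Aldh2, which oxidises acetaldehyde, at -0.27 and -0.65 and Fmo1, a flavin monooxygenase, at -0.53 and -0.36. All 22 genes of the cholesterol list were tested, with a median of 0.08. Of these 22, 12 were lower on the male and higher on the female array, a pattern of 29.3% of all features. By mean ratio the mevalonate pathway enzymes Mvd, at -0.40 and -0.37, and Idi1, at -0.55 and 0.31, were the lowest. Stard4, a sterol carrier, was among the 2 highest, at 0.42 and 0.24. On a single array other genes of the list went beyond these values. Of other steroid genes 18 of 21 were tested, with a median of -0.03. Akr1c18, which inactivates progesterone, was at -1.28 and -0.96 (adjusted p = 0.0895, limma) and Akr1c14 at -0.82 and -0.26, while Srd5a1, a steroid reductase, was at 0.51 and 0.31 and Star, which carries cholesterol into mitochondria, at 0.16 and 0.31. None of the genes in either list passed the test.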

How the data were processed

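Per the labels' protocols, total RNA was amplified to cRNA and coupled to AlexaFluor555 (green) or AlexaFluor647 (red). The deposited scanner files hold spot intensity from Agilent Feature Extraction 10.7.3.1, as the submitters' processing notes name it. The log10 ratio in them is, per the file headers, red over green after background subtraction and dye normalisation. The authors' series values are a score of unstated origin, with a median of 1 in each column. Read as signed folds (Rbpj-cKO over control), they lay within 0.01 (log2) of the processed-signal ratios for 67.4% of single-spot probes (male array) and 67.2% (female array). How the remaining probes were treated there stays unknown.

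Mean signals were corrected with normexp (offset 50) followed by within-array loess (control spots weighted 0). Outlier spots (200 male, 274 female) were dropped before averaging the spots of a probe. Channel levels are after Aquantile scaling. Of 39429 probes, 26412 were named by RefSeq accession (GRCm38.p6) and 13017 by the files' own name. Each gene took its brightest kept probe. The log2 ratios were tested with limma 3.58.1 in R 4.3.3 (lmFit and eBayes, two-sided, Benjamini-Hochberg over 20989 features, threshold 0.05). Residual degrees of freedom were 1, prior degrees 10.3. The number of arrays limits the precision. The step was also run on simulated ratios, with the same change added on both arrays. That run does not address sex, dye orientation or the spread between embryos. Both arrays share slide and scan, which leaves no batch to test.

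The members and lists, the choice to set Cyp2e1 against its relatives and the motifs were chosen with earlier results of these data known. Named are Cyp2e1 at each probe and every tested member, with all channels for those past the test, changed 1.5-fold the same way or among the 6 highest or lowest. Channel levels of Cyp2d26, Cyp2c67 and Cyp1b1 and the values of Alb, Afp, Fgg, Ttr, Ahr and Hnf4a were added after they were seen. Of each pathway list the 2 highest and 2 lowest members are named, except 1 that is not reported here, while markers of cell types are given by counts and medians. Alternatives changed the background correction, normalisation, filter, probe summary, prior and arrays.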

Additional observations from a re-analysis of the deposited data

Results flagged for a closer look

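Cyp2d26 and Cyp2c67 were lower in Rbpj-cKO on the male array and higher on the female array, each by at least 1.5-fold. The male ratio minus the female ratio was -1.94 for Cyp2d26 and -1.72 for Cyp2c67 on the log2 scale. With 1 array per sex these differences were not tested. Sex, dye orientation and the particular RNA on each array cannot be told apart. When log ratios were centred on the median with no loess, the ratios were -0.96 and 0.80 for Cyp2d26 and -0.92 and 0.64 for Cyp2c67. Cyp39a1 was near 0 on the male array (0.12) and at -1.36 on the female array.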

How the results depend on the processing

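The log2 ratio of Cyp2e1 was between 1.38 and 1.59 under 11 alternatives, and was 1.28 and 1.47 on the single arrays. The 2 filter settings, each probe by itself, the intensity trend and Aquantile scaling leave the brighter probe's ratio of 1.38 as it was by construction. Agilent's processed signals and the series value table gave the same 1.59, so the 11 are not independent checks of the ratio. The adjusted p of Cyp2e1 (limma) ran from 0.000441 to 0.988 and was past the threshold in 6 of the 11. By limma's adjusted p it missed the threshold when arrays were median-centred without loess (ratio 1.43, adjusted p = 0.988), with Agilent's processed signals (1.59, adjusted p = 0.239), with the series value table (1.59, adjusted p = 0.246), without a filter on dim probes (1.38, adjusted p = 0.111) and where kept probes of a gene were averaged (1.46, adjusted p = 0.0515). In these 5 settings 0 cytochrome P450 genes passed the test, and the whole array had 0 calls in each except the last, which had 10. The cause was not tested. With 1 array left there is no test, and the members with at least 1.5-fold numbered 8 without replicate 1 and 7 without replicate 2. The share of all features past 1.5-fold on a single array is not given here. Whether these counts of members differ from the whole array was not tested. The calls over all features ran up to 75, without background correction, against 27 in the fit reported. No paired analysis was possible because the 2 arrays form a single group, beyond the pairing of both genotypes within each array that the ratio already holds. For 13 other genes, all 142 mean ratios with a test kept their sign and none passed the threshold. Many of these ratios were also fixed by construction, in the settings named for Cyp2e1. For genes with 1 kept probe, averaging the kept probes left the ratio as it was too. Of their 26 single-array values, 7 had the opposite sign to the mean. They were Cyp2c29 (0.53), Cyp2c68 (0.26), Cyp2c67 (0.67) and Cyp2d26 (0.84) without replicate 1, and Cyp3a11 (-0.14), Cyp4a12b (-0.04) and Cyp39a1 (0.12) without replicate 2. Signal over background limits the members that were not tested.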
